A study of Mus musculus with 40 samples.

Results

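Ephb1, Etv5, Rgs7, Limch1 and Xkr4 are 5 genes whose RNA was scarce in control mouse oocytes and more abundant in oocytes lacking G9a or both G9a and Glp. They are 5 of the 14062 genes that the deposited RNA table annotates on the strand of the locus. They occupy 6 of its 15023 annotated loci, because Limch1 has 2. The genes had been picked from the RNA values of these same libraries. Their RNA is therefore given as a description, without a test, and only the RNA of neighbouring loci, the RNA of related genes and the histone modification were tested.

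All libraries were made from oocytes at the germinal vesicle stage, the fully grown stage before meiotic maturation, dissected by hand from ovaries of mice 22 to 25 days old, with 100 to 200 oocytes per sample. The labels give the genotypes as Control, G9a cKO (a conditional knockout of G9a) and G9a-Glp cDKO (a conditional knockout of both genes, here cDKO). The Cre driver, the strain and the alleles of the controls are not given in the sources used here, nor is it stated whether replicates came from separate mice, so spreads between libraries may be technical. RNA was measured in 3 controls and 3 G9a cKO libraries with the title prefix GKAO, and in 3 controls and 2 cDKO libraries with the prefix GKAQ. Each mutant was compared with the controls of its own prefix. H3K9me2, dimethylation of lysine 9 on histone H3, was measured by native chromatin immunoprecipitation in 2 libraries per genotype, so both mutants share the same 2 control libraries in that assay.

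G9A, the product of Ehmt2, and GLP, the product of Ehmt1, form a complex that places H3K9me2 on euchromatin, where the mark is associated with silent genes. The 5 genes do different work. EPHB1 is a receptor tyrosine kinase that binds ephrin-B ligands on neighbouring cells. RGS7 speeds the shutdown of heterotrimeric G proteins and works with the G protein subunit encoded by Gnb5. ETV5 is an ETS-family transcription factor induced by FGF-ERK signalling and is known for maintaining the germline stem cells of the testis. LIMCH1 binds non-muscle myosin II and promotes actomyosin contractility. XKR4 belongs to the XK family and exposes phosphatidylserine on the surface of dying cells.

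The genes differ in how their transcribed loci sit on the genome (GRCm38). Ephb1 (ENSMUSG00000032537) is the locus chr9:101922128-102354693 on the minus strand, 432.6 kb long. Rgs7 (ENSMUSG00000026527) is chr1:175059096-175492685 on the minus strand, 433.6 kb. Xkr4 (ENSMUSG00000051951) is chr1:3201005-3671507 on the minus strand, 470.5 kb. These 3 loci are longer than 98.9%, 98.9% and 99.1% of all annotated loci, whose median length is 20.9 kb. Etv5 (ENSMUSG00000013089), chr16:22381309-22441052 on the minus strand, spans 59.74 kb. The Limch1 gene (ENSMUSG00000037736) spans 311.3 kb in RefSeq, from 66745889 to 67057159 on the plus strand of chromosome 5, but its reads were counted over 2 short stretches. The downstream row, chr5:67043728-67057159, covers 13.43 kb at the 3′ end of the gene, or 4.32% of its span, and starts 75300 bases past the nearest RefSeq start. The upstream row, chr5:66974521-67021926, covers 47.41 kb, or 15.2%. The working description of the group as long genes thus holds for 3 of the 5 loci as deposited, and for Limch1 only by its RefSeq span.

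Promoter sequences from RefSeq (GRCm38.p6), 250 bases before to 50 bases after an annotated start, were available for 4 of the 5 genes. None was available for Xkr4, so the set shown was fixed by availability and not by RNA. Capitals mark CG pairs, the sites of DNA methylation. The windows are chr9:102354644-102354943 (minus strand) for Ephb1, chr16:22439521-22439820 (minus strand) for Etv5, chr1:175492496-175492795 (minus strand) for Rgs7 and chr5:66745639-66745938 (plus strand) for Limch1.
Ephb1 promoter: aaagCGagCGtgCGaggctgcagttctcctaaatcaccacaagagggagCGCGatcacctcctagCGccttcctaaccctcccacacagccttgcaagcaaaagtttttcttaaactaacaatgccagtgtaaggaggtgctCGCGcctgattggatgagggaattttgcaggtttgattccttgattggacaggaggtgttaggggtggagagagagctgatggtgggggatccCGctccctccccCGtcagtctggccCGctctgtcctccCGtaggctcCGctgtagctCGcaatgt
Etv5 promoter: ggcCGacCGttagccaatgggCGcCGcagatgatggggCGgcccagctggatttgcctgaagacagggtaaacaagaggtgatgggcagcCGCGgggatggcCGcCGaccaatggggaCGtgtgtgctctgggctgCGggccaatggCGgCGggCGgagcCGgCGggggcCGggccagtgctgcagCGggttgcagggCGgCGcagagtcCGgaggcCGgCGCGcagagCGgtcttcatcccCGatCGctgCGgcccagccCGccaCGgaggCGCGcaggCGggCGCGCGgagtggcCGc
Rgs7 promoter: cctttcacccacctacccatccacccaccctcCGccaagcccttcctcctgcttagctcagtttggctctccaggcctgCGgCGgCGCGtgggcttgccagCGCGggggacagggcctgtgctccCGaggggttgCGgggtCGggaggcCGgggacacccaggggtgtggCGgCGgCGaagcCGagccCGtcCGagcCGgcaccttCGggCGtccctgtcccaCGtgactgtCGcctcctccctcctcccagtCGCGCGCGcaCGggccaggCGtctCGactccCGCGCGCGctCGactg
Limch1 promoter: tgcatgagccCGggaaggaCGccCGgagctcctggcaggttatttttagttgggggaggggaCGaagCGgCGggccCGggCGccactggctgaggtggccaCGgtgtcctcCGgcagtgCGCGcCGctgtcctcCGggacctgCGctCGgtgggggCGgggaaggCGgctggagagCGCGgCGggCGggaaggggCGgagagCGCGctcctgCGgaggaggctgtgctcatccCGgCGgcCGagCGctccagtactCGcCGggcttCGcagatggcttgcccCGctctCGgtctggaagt
The Limch1 window is at the first RefSeq start of the gene and lies before both deposited rows. The row between it and the 3′ row showed no RNA difference, so it is not shown to be the start of the RNA that was higher, and the sequence at the 3′ row was not analysed here. The Etv5, Rgs7 and Limch1 windows are dense in CG pairs, with 37, 34 and 35, against a median of 7 over the 32851 RefSeq promoters of this length. The Ephb1 window holds 14, more than 63.7% of promoters. RefSeq lists a further Etv5 start, with 19 CG pairs, and 2 further Limch1 starts, with 2 and 10. The windows were searched on both strands for 3 motifs: CACGTG (the E-box), GCGGGAA (an E2F6 motif) and CCGGAA (the core bound by ETS factors such as ETV5). E2F6 and the E-box binding protein MGA are known partners of G9A and GLP. CACGTG occurs in the Rgs7 window, from base 222, and in 7.15% of all promoters. GCGGGAA occurs in the Limch1 window, from base 185, and in 4.6% of all promoters. CCGGAA, in 14.9% of all promoters, was in none of the windows of these genes. The motifs do not overlap each other in these windows, and a match describes letters only.

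RNA totals ranged from 1458868 to 2399680 reads per library, and 3 reads were worth 1.25 to 2.06 RPM (reads scaled to the same library total). The Ehmt2 row held 9 to 13 reads in GKAO controls and 5, 11 and 2 in the libraries labelled G9a cKO, so the library labelled G9a cKO replicate 2 lies within the control range. In GKAQ controls it held 8 to 30 reads, against 5 and 5 in the cDKO. Which part of Ehmt2 was deleted is not given in the sources used here, so these reads are a weak check of the labels. The Ehmt1 row held 144 to 173 reads in GKAQ controls and 31 and 36 in the cDKO. The 11 oocyte marker genes matched summed to 14690 to 17990 RPM in each library, and 12 granulosa cell markers to 52.18 to 77.94 RPM. In pooled oocytes, a gene transcribed in fewer cells and less RNA per cell cannot be told apart.

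Ephb1, the Eph receptor, had a few reads in controls and many more in both mutants. Its locus held 4, 2 and 1 reads in GKAO controls (2.74, 1.05 and 0.586 RPM) and 49, 22 and 34 reads in G9a cKO (20.46, 12.02 and 16.0 RPM). Every G9a cKO library was above every control, and the pooled ratio of RPM was 12.0 (95% counting interval 5.62 to 30.5). In GKAQ controls it held 1, 6 and 5 reads (0.629, 2.50 and 2.46 RPM), and in the cDKO 91 and 68 (51.8 and 40.3 RPM). The cDKO libraries again lay above all controls, with a ratio of 23.2 (12.9 to 45.8). These intervals are exact for counts, cover counting error only, and take no account of spread between libraries. On the deposited log2 scale the group means were 0.25 ± 1.12 (SD, n = 3) for GKAO controls, 3.98 ± 0.38 (n = 3) for G9a cKO, 0.65 ± 1.14 (n = 3) for GKAQ controls and 5.51 ± 0.26 (n = 2) for the cDKO.

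Rgs7, the G protein regulator, was the member that separated the mutants. It held 4, 3 and 5 reads in GKAO controls and 7, 4 and 8 in G9a cKO, or 2.74, 1.57 and 2.93 RPM against 2.92, 2.19 and 3.77. These groups overlap, and the ratio was 1.27 with an interval of 0.583 to 2.86. In GKAQ controls it held 1, 5 and 1 reads (0.629, 2.08 and 0.493 RPM) and in the cDKO 51 and 47 (29.0 and 27.9 RPM). The cDKO ratio was 24.5 (11.4 to 62.5), with both libraries far above the controls. Mean log2 values were 1.22 ± 0.49 and 1.53 ± 0.39 (SD, n = 3 each) in the GKAO groups, and −0.21 ± 1.11 (n = 3) and 4.83 ± 0.04 (n = 2) in the GKAQ groups. Because the gene was picked on these contrasts, the difference between the mutants is a description.

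Etv5, the transcription factor, was higher in both mutants, from control levels that differed between the GKAO and GKAQ series. GKAO controls held 2, 1 and 0 reads (1.37, 0.524 and 0 RPM) and G9a cKO libraries 29, 31 and 10 (12.1, 16.9 and 4.71 RPM). The ratio was 18.6 with a wide interval, 6.12 to 92.6, set by the 3 control reads. GKAQ controls held 5, 5 and 6 reads (3.14, 2.08 and 2.96 RPM) and cDKO libraries 43 and 32 (24.5 and 19.0 RPM), a ratio of 8.2 (4.73 to 15.1). No mutant library fell into its control range. Mean log2 values were −0.47 ± 0.8, 3.3 ± 0.96 and 1.43 ± 0.32 (SD, n = 3 each) in GKAO controls, G9a cKO and GKAQ controls, and 4.43 ± 0.26 (n = 2) in the cDKO. All 3 GKAQ controls lay above all 3 GKAO controls, so the larger ratio in G9a cKO stands beside a lower control level.

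Limch1, the myosin regulator, was higher at its 3′ row and not at its upstream row. The 3′ row held 0, 3 and 1 reads in GKAO controls (0, 1.57 and 0.586 RPM) and 22, 34 and 10 in G9a cKO (9.18, 18.6 and 4.71 RPM), a ratio of 13.2 (4.91 to 49.8). It held 0, 2 and 1 reads in GKAQ controls (0, 0.833 and 0.493 RPM) and 63 and 54 in the cDKO (35.9 and 32.0 RPM). That cDKO ratio, 68.2 (22.8 to 335), had the highest point value among the 6 loci and rests on 3 control reads. The upstream row held 0, 2 and 1 reads in GKAO controls, 3, 1 and 1 in G9a cKO, 1, 6 and 2 in GKAQ controls and 4 and 2 in the cDKO. Its groups overlapped in both comparisons, with ratios of 1.33 (0.259 to 8.58) and 1.17 (0.341 to 3.67). The RNA that was counted over the last 13.43 kb was thus not matched by RNA over the 47.41 kb stretch before it, where few reads were counted in any group. Mean log2 values of the 3′ row were −0.27 ± 0.8, 3.22 ± 0.99 and −0.7 ± 0.39 (SD, n = 3 each) in GKAO controls, G9a cKO and GKAQ controls, and 5.08 ± 0.12 (n = 2) in the cDKO.

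Xkr4, the scramblase, had the smallest cDKO difference of the 5 genes. It held 2, 6 and 2 reads in GKAO controls (1.37, 3.14 and 1.17 RPM) and 14, 18 and 26 in G9a cKO (5.85, 9.83 and 12.2 RPM), a ratio of 4.64 (2.35 to 10.2). It held 4, 10 and 9 reads in GKAQ controls (2.51, 4.17 and 4.44 RPM) and 11 and 14 in the cDKO (6.26 and 8.30 RPM). The cDKO ratio was 1.9, and its interval, 1.04 to 3.5, nearly reaches no difference. Mean log2 values were 0.78 ± 0.76, 3.15 ± 0.55 and 1.85 ± 0.45 (SD, n = 3 each) in GKAO controls, G9a cKO and GKAQ controls, and 2.85 ± 0.29 (n = 2) in the cDKO.

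**Figure D1:**
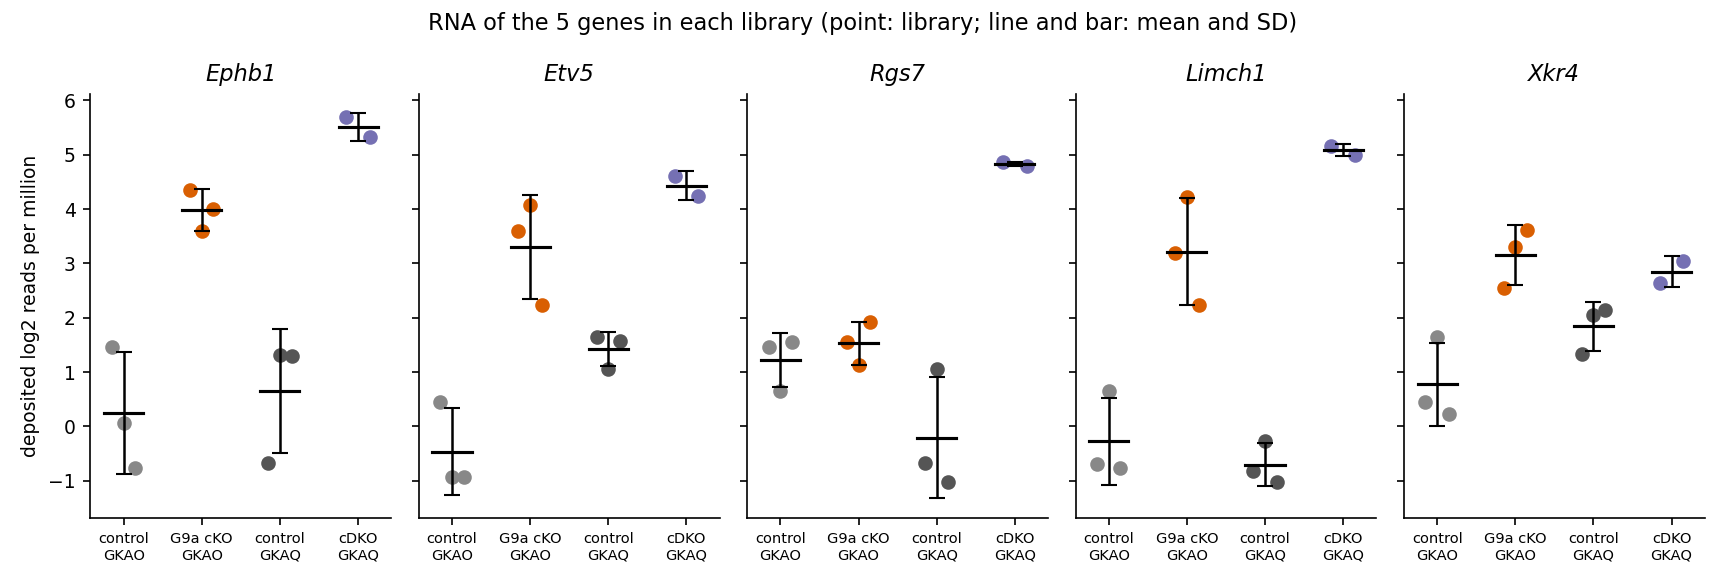
Deposited log2 RPM (vertical axis) of the 5 genes in each of the 11 RNA libraries, by group (horizontal axis), where points are libraries, the long line is the group mean and the bars are 1 SD. Limch1 is its 3′ row. Ephb1, Etv5 and Limch1 are separated from their controls in both mutants, Rgs7 only in the cDKO, and Xkr4 most in G9a cKO.

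Counted over genes, all G9a cKO libraries exceeded all their controls for 4 of the 5 genes, with Rgs7 the exception, and all cDKO libraries did so for 5 of 5. The same separation held for 6.57% of all 38540 loci in G9a cKO and 15.8% in the cDKO, and for 12.2% and 27.4% of loci with more than 3 reads in a library. Nothing is read from these counts, since the genes were picked on these values. The working description of the group as strongly released is met in both mutants by Ephb1, Etv5 and Limch1, and in 1 mutant by Rgs7 and Xkr4. The GKAO titles carry 1 of 2 numbers. Among libraries with the lower title number, the difference on the log2 scale was 3.59 for Ephb1, 3.84 for Etv5, 3.22 for Limch1 and 1.49 for Xkr4. Among those with the higher number it was 4.57, 4.08, 4.00 and 3.23 for the same genes. For Rgs7 it was 0.49 and −0.03. Each title number holds 3 of these libraries.

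The members also differ from each other across the 11 libraries. Pearson's r of log2 values between pairs ran from 0.35 (Rgs7 and Xkr4) to 0.91 (Ephb1 and Limch1), a description over libraries that share groups and depths. Among 9035 annotated loci with at least 10 reads in at least 2 libraries, the loci most like each member were ranked by r. That they follow its group pattern is set by this ranking, so they are listed as a description. Gab1 (r = 0.984), an adaptor of receptor tyrosine kinases, and Stat3 (r = 0.973), a transcription factor of cytokine signalling, were most like Ephb1. Gab1 held 1 to 3 reads in GKAO controls, 24 to 49 in G9a cKO, 0 to 6 in GKAQ controls and 54 to 70 in the cDKO. It reached 10 reads only in mutant libraries. Stat3, with 287 or more reads in every library, shows that likeness here is of pattern and not of level. Rgmb (0.974), a bone morphogenetic protein co-receptor, and Ccdc68 (0.969) were most like Etv5. Fam110c (0.963) and C87499 (0.949) were most like Rgs7. Arhgap22 (0.981) was most like Limch1. Lbp (0.987), which binds lipopolysaccharide, and Slc38a4 (0.964), an amino acid transporter, were most like Xkr4.

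Whether RNA rose at single genes or across their surroundings was examined in the loci whose nearest edge lies within 500 kb. There were 69 such loci, 17 around Ephb1, 22 around Etv5, 12 around Rgs7, 13 around Limch1 and 5 around Xkr4, and 40 of them had more than 3 reads in some library. In G9a cKO, 1 of the 69 was higher at an adjusted p under 0.05 and none was lower (limma, Benjamini-Hochberg over all 38540 loci). That is 1.45% of neighbours, beside 1.79% of all loci, of which 1.05% were higher and 0.737% lower. In the cDKO, 5 were higher and 3 lower, or 11.6% beside 6.34% of all loci (4.32% higher and 2.02% lower). Among loci with more than 3 reads, 1 of 40 neighbours was called beside 3.58% in G9a cKO, and 8 of 40 beside 12.5% in the cDKO. The median log2 change of these 40 neighbours was −0.1 in G9a cKO and 0.05 in the cDKO, against 0.03 and 0.14 over all such loci. No neighbour changed in G9a cKO around Etv5, Rgs7, Limch1 or Xkr4 at that threshold.

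Around Ephb1, the unannotated locus TCONS_00104119 (chr9:102562604-102571647, plus strand) rose in both mutants. It lies 207.9 kb before the 5′ end of Ephb1 and is transcribed from the other strand. It held 6, 8 and 5 reads in GKAO controls and 23, 24 and 22 in G9a cKO, a log2 change of 1.56 (SE 0.41, limma adjusted p = 0.0142). It held 10, 13 and 11 reads in GKAQ controls and 26 and 43 in the cDKO, a log2 change of 1.77 (SE 0.46, adjusted p = 0.00447). Groups did not overlap in either comparison. The G9a cKO call was lost without GKAO control replicate 3 (adjusted p = 0.0867) and without G9a cKO replicate 2 (0.128), and the cDKO call without cDKO replicate 2 (0.229). Of the other 9 neighbours of Ephb1 with more than 3 reads, none was called in either mutant. In the cDKO the largest change among them was that of TCONS_00107070, before the 5′ end of Ephb1. It held 3 to 10 reads against 0 to 2 in GKAQ controls (log2 change 2.37, SE 0.81, limma adjusted p = 0.0521). In G9a cKO it held 2 to 5 reads against 1 to 3 (0.26, adjusted p = 0.83). This locus is named outside the rule for neighbours, because of its cDKO change. The median log2 change of all 10 such neighbours was −0.07 in the cDKO. They include TCONS_00104117, which overlaps Ephb1 on the other strand. TCONS_00104117 held 0, 2 and 5 reads in G9a cKO and 0 and 1 in the cDKO.

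Around Etv5, 2 loci rose and 1 fell in the cDKO. Senp2, which encodes a SUMO protease and lies 332.0 kb past the 3′ end, held 36, 47 and 39 reads in GKAQ controls and 90 and 95 in the cDKO, a log2 change of 1.4 (SE 0.25, adjusted p = 2.3e-06, or 0.0925 with log2(RPM + 1)). By contrast, Senp2 held 70, 110 and 83 reads in G9a cKO against 73, 43 and 57, which overlap (log2 change 0.29, adjusted p = 0.352). The unannotated TCONS_00043110, 469.2 kb before the 5′ end, held 0 reads in each GKAQ control and 4 in each cDKO library, at least 4.66-fold higher when 3 reads are allowed over the control group (adjusted p = 0.00987, or 0.0658 without GKAQ control replicate 2). Igf2bp2, which encodes an RNA-binding protein and lies 217.6 kb past the 3′ end, fell by 0.31 on the log2 scale (SE 0.07, adjusted p = 0.000181), from 870, 862 and 841 RPM to 755 and 635. The change of Igf2bp2 differed between the mutants by −0.31 (adjusted p = 0.0472), a difference called in 1.08% of all loci. The Igf2bp2 call in the cDKO was lost without cDKO replicate 2 (adjusted p = 0.174). Dgkg, a diacylglycerol kinase gene and the annotated neighbour at −25.3 kb, before the 5′ end of Etv5, held 21 to 23 reads in GKAQ controls and 12 to 18 in the cDKO and was not called (adjusted p = 0.565). Dgkg is named outside the rule for neighbours, because of its position.

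Around Rgs7, TCONS_00003470 (81.4 kb before the 5′ end) rose in the cDKO, with 174, 257 and 194 reads in controls and 279 and 255 in the mutant. Its log2 change was 0.58 (SE 0.16, adjusted p = 0.00636), against 5.04 for Rgs7, which was picked on such values. The call was lost without GKAQ control replicate 3 (0.0622) or cDKO replicate 1 (0.0866). Fmn2, a formin needed for spindle positioning in oocytes, lies 236.4 kb past the 3′ end and had a log2 change of −0.3 (SE 0.1, adjusted p = 0.0364), a call lost on leaving out any 1 of the 5 GKAQ libraries (0.0716 to 0.14). TCONS_00003469, inside Rgs7 on the other strand, held 4 and 0 reads in the cDKO and 0 in every GKAQ control (adjusted p = 0.0536).

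Around Limch1, TCONS_00077606 (349.8 kb before the upstream row) held 5, 16 and 15 reads in GKAQ controls and 2 and 3 in the cDKO, a log2 change of −1.92 (SE 0.56, adjusted p = 0.0139) that was lost without GKAQ control replicate 2 or 3 or cDKO replicate 1 (0.0874 to 0.188). TCONS_00077609, an abundant locus antisense to Gm16832 and 282.6 kb before the upstream row, had a log2 change of 0.26 (SE 0.05, adjusted p = 1.07e-05), lost without cDKO replicate 1 (0.292). With log2(RPM + 1) and with precision weights the calls of TCONS_00077606, TCONS_00077609, Fmn2, Igf2bp2 and, in G9a cKO, TCONS_00104119 were lost as well (adjusted p 0.0625 to 0.192). With all 6 controls as 1 group the calls of TCONS_00077609 (0.874) and Fmn2 (0.176) were lost. None of the 5 neighbours of Xkr4 was called, and only 1 of them had more than 3 reads. Counting is not stated to have used the strand, so reads of overlapping loci on opposite strands cannot be told apart.

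**Figure D2:**
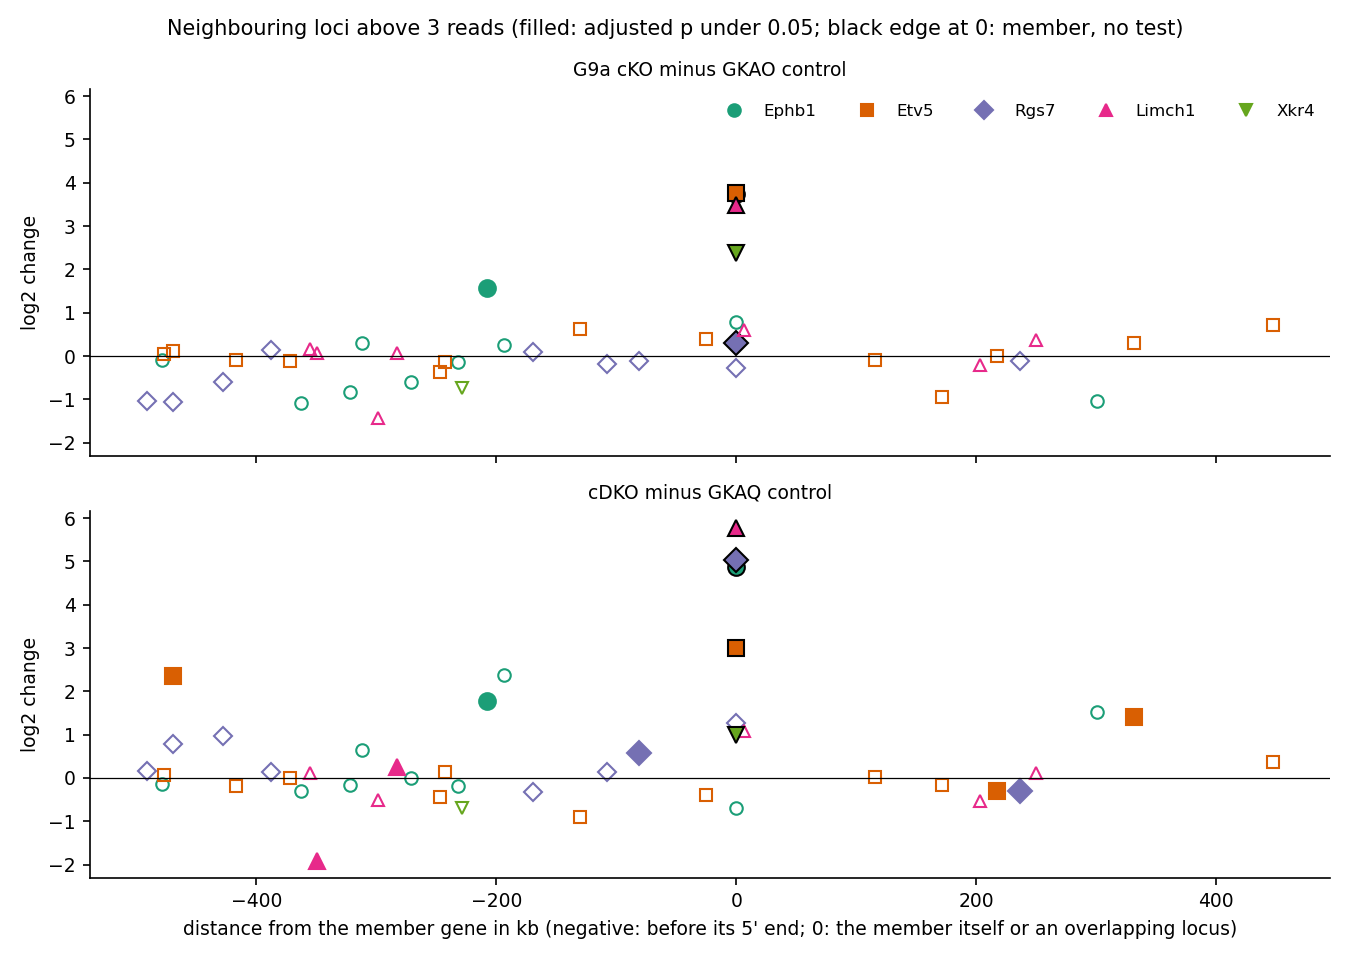
Log2 change in RNA (vertical axis) of neighbouring loci with more than 3 reads against their distance from the member gene in kb (horizontal axis, negative before its 5′ end), for G9a cKO (top) and cDKO (bottom). Filled symbols are loci with an adjusted p under 0.05 and black edges mark the members, which were not tested. The called neighbours lie between −1.92 and 2.35 on the log2 scale. In the cDKO the Ephb1, Rgs7, Limch1 and Etv5 values lie above this range and reach 5.78, and that of Xkr4 (1.0) lies within it. The members were picked on such values, so nothing is read from this order.

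H3K9me2 is independent of the RNA values that chose the genes. The control libraries totalled 7048785 and 19128883 reads, those of G9a cKO 1857144 and 1109191, and those of the cDKO 1723142 and 1881848. Values are scaled to each library, so they show where the mark lies and not how much of it there is. In controls the mark over Ephb1 averaged 4.81 and 5.32 RPM per 10 kb window, more than 93.4% of annotated loci. The upstream row of Limch1, at 5.37 and 4.64 RPM, exceeded 92.6% of loci, and Rgs7, at 4.44 and 4.63, exceeded 82.7%. Etv5 (4.32 and 3.87 RPM), Xkr4 (3.76 and 3.87) and the 3′ row of Limch1 (3.62 and 3.95) exceeded 65.6%, 51.8% and 50.2%. The members thus started from unlike H3K9me2 signals. These signals were not corrected for input, and that of the 3′ row of Limch1 rests on 2 windows.

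In G9a cKO the relative H3K9me2 was lower over Ephb1, Rgs7 and the upstream row of Limch1 in both mutant libraries, and higher over Xkr4. Ephb1 had 4.25 and 3.46 RPM in the mutant, Rgs7 3.41 and 3.63, and the upstream row of Limch1 2.87 and 3.31. None of these values overlapped the controls, a separation in this direction that 27.6% of all loci showed. Xkr4 had 4.96 and 4.45 RPM, above both controls, as did 32.2% of loci. Etv5 (3.54 and 4.25 RPM) and the 3′ row of Limch1 (1.88 and 4.06) overlapped their controls. By the test, no locus of 38475 was called in either mutant at an adjusted p under 0.05 (limma, 0.0% called; 9071 loci in G9a cKO and 5283 in the cDKO had an unadjusted p under 0.05). The log2 changes in G9a cKO were −0.36 (SE 0.18, adjusted p = 0.295) for Ephb1, −0.33 (SE 0.17, 0.309) for Rgs7, −0.62 (SE 0.19, 0.128) for the upstream row of Limch1 and 0.27 (SE 0.18, 0.41) for Xkr4. They were −0.07 (0.857) for Etv5 and −0.38 (SE 0.34, 0.552) for the 3′ row of Limch1. On simulated data this test recovered none of the loci made to change, so its lack of calls is uninformative. After these results were seen, the prior variance was made to follow the summed reads of the locus in place of its level. The limma adjusted p in G9a cKO was then 0.0209 for Rgs7, 0.0361 for Ephb1, 0.0415 for the upstream row of Limch1 and 0.0723 for Xkr4. Of 38475 loci, 3798 were called in that mutant, 3008 higher and 790 lower. In the cDKO 228 were called, 214 higher and 14 lower. With the prior variance on the number of windows, 2540 loci were called, 1768 higher and 772 lower. Of the members only Rgs7 passed (adjusted p = 0.0331), with 0.0513 for the Limch1 upstream row, 0.0541 for Ephb1 and 0.0889 for Xkr4.

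In the cDKO the relative H3K9me2 over the members lay nearer to the controls than in G9a cKO for Ephb1, Rgs7, Xkr4 and both rows of Limch1, a comparison of means that was not called by the test. Ephb1 had 4.70 and 4.87 RPM, overlapping the controls, a log2 change of −0.07 (adjusted p = 0.887). Rgs7, at 3.82 and 4.10 RPM (log2 change −0.18, adjusted p = 0.68), and the upstream row of Limch1, at 3.68 and 3.81 (−0.37, 0.426), lay below both controls, as did 20.9% of loci. Etv5, at 5.06 and 4.71 RPM (0.23, 0.608), and Xkr4, at 4.67 and 3.96 (0.15, 0.734), lay above both controls, as did 34.5% of loci. The 3′ row of Limch1 had 4.35 and 3.45 RPM (0.03, 0.977). Set directly against G9a cKO, the cDKO differed by −0.11 to 0.41 on the log2 scale over the 6 loci, with adjusted p of 0.471 to 0.779. Both contrasts share their controls.

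The side-by-side order of the 2 assays differs between genes. Ephb1 had RNA ratios of 12.0 in G9a cKO and 23.2 in the cDKO. Its mean H3K9me2 was 5.06 RPM in controls, 3.85 in G9a cKO and 4.78 in the cDKO. The 3′ row of Limch1 had RNA ratios of 13.2 and 68.2. Over the stretch of both Limch1 rows the mark averaged 4.64, 2.89 and 3.64 RPM. Over the 3′ row alone both mutants overlapped the controls. Rgs7, whose RNA was 24.5 times its controls in the cDKO and 1.27 times in G9a cKO, had a mean H3K9me2 of 4.53 RPM in controls, 3.52 in G9a cKO and 3.96 in the cDKO. Xkr4, with RNA ratios of 4.64 and 1.9, had 3.81 RPM in controls, 4.70 in G9a cKO and 4.32 in the cDKO. Etv5, with RNA ratios of 18.6 and 8.2, had 4.09 RPM in controls, 3.89 in G9a cKO and 4.88 in the cDKO. With 5 genes and shared controls, no relation between the assays was computed.

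**Figure D3:**
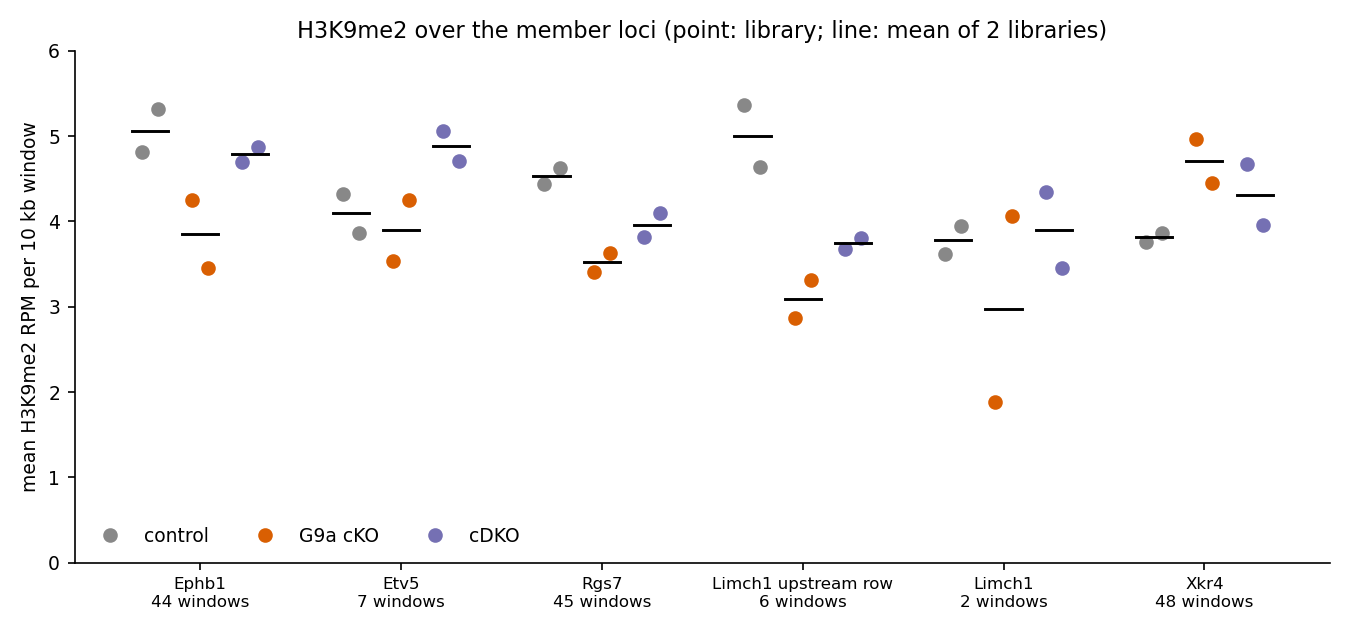
Mean H3K9me2 in RPM per 10 kb window (vertical axis, from 0) over the 6 member loci in each library, where points are libraries and lines are means of 2. The G9a cKO points lie below both controls for Ephb1, Rgs7 and the upstream row of Limch1 and above them for Xkr4.

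At the scale of single windows, 4730 of 255057 windows (1.85%) were called in G9a cKO, with 1.75% rising and 0.102% falling, and 0 in the cDKO. Of the 152 windows over the members, 2 were called. The window chr1:3620001-3630000, near the 5′ end of Xkr4, had 3.83 and 4.08 RPM in controls and 14.0 and 10.8 in G9a cKO, a log2 change of 1.64 (SE 0.35, limma adjusted p = 0.0461). The window chr5:66990001-67000000, in the upstream row of Limch1, had 36 and 83 control reads but 0 and 1 reads in G9a cKO, a log2 change of −2.83 (SE 0.64, adjusted p = 0.0495). Both lie just inside the threshold. On simulated data the window test also called unchanged windows in G9a cKO, and neither call remained when windows averaging under 1 RPM were left out. No member window was called without control replicate 1, control replicate 2 or G9a cKO replicate 2, and 10 were called without G9a cKO replicate 1. Over all windows, leaving out G9a cKO replicate 1 gave 3848 higher and 9779 lower in G9a cKO, and leaving out replicate 2 gave 0. Without control replicate 1 there were 2496 higher and 0 lower in that mutant and 1443 higher in the cDKO. Without control replicate 2 there were 2984 higher and 1 lower in G9a cKO and 0 in the cDKO. In G9a cKO the window mean was below that of the controls in 36 of 44 windows of Ephb1, 38 of 45 of Rgs7, 6 of 6 of the upstream row of Limch1 and 18 of 48 of Xkr4. In the cDKO it was lower in 30 of 44, 31 of 45, 6 of 6 and 21 of 48. Over all windows tested, 60.3% had a lower mean in G9a cKO and 55.9% in the cDKO, and neighbouring windows of a gene are not independent.

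The surroundings shared some of these differences. For Ephb1 the log2 ratio of mean RPM in G9a cKO was −0.39 over the windows of the gene, −0.05 in the 500 kb before its start and −0.02 in the 500 kb after its end. For Rgs7 it was −0.36 over the gene and −0.26 and −0.29 on either side. For Limch1 it was −0.68 over the stretch from the upstream row to the 3′ row, and −0.27 and −0.3 around it. For Xkr4 it was 0.3 over the gene, 0.4 before it and 1.13 after it, where the table holds 20 windows before the end of the chromosome's covered part. For Etv5 it was −0.07, −0.04 and 0.44. The values over Ephb1, the Limch1 stretch, Rgs7 and Etv5 were lower than on either side, at Rgs7 and Etv5 only slightly lower than the nearer flank value. Those at Ephb1, the Limch1 stretch, Rgs7 and Xkr4 had the sign of both their flanks. The flank before the Limch1 rows holds the first part of the RefSeq gene, its start included. These comparisons with flanks were not tested. In the 10 kb window at the RefSeq start, the 2 control libraries had 32 and 97 reads for Limch1 and G9a cKO 13 and 9 (4.54 and 5.07 against 7.00 and 8.11 RPM). The start window of Xkr4 had 33 and 63 control reads, 4.68 and 3.29 RPM, and 15 and 7 reads in G9a cKO, 8.08 and 6.31 RPM. Both mutant libraries were thus above both controls at these 2 starts, on 7 to 15 reads each. Over all loci 32.2% showed such a separation, and the share of single windows was not computed. The Xkr4 window was not called (adjusted p = 0.277). The start windows of Ephb1, Etv5 and Rgs7 held 3 to 7 reads in the G9a cKO libraries, which is too few to show a difference.

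**Figure D4:**
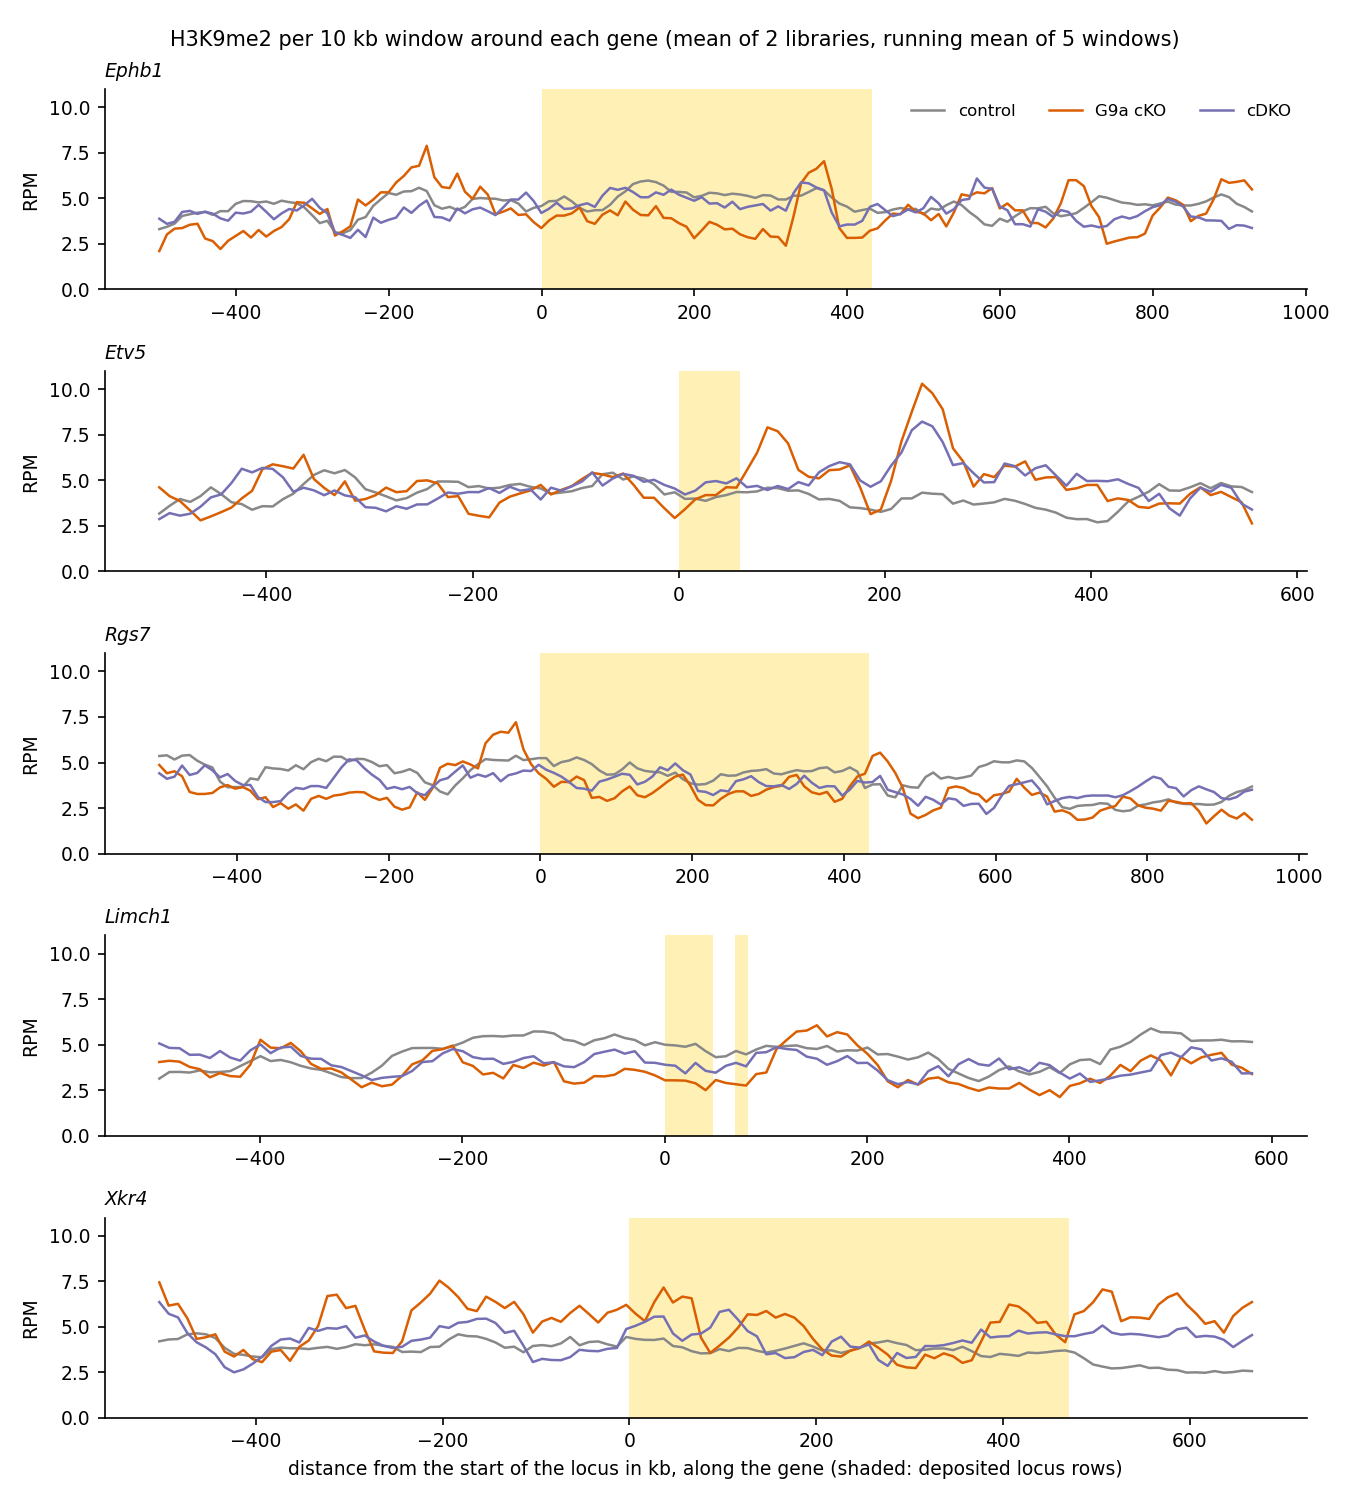
H3K9me2 in RPM per 10 kb window (vertical axis, running mean of 5 windows over the mean of 2 libraries) against distance along each gene in kb from the start of its locus (horizontal axis), with the deposited loci shaded. The G9a cKO line runs below the control line through most of Ephb1 and Rgs7 and above it on both sides of Xkr4.

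The share of loci called was also read by length. Among annotated loci of 300 kb or more, 3.27% of 367 were higher in G9a cKO and 8.99% in the cDKO. Among those under 100 kb the shares were 1.34% and 6.09%. Among loci with more than 3 reads they were 3.36% and 9.24% at 300 kb or more, and 1.84% and 8.2% under 100 kb, so the classes lie closer there in the cDKO. Most loci of the length of Ephb1, Rgs7 and Xkr4 were not called higher in either mutant. These counts keep the members, and Ephb1, Rgs7 and Xkr4 lie in the longest class. The shares of that class are thus not independent of the values that chose the genes.

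The partners of these genes in their pathways were read from lists that leave out the members. Over all annotated loci, 2.96% were called in G9a cKO (1.55% higher, 1.41% lower) and 10.3% in the cDKO (6.4% higher, 3.89% lower). Of 18 Eph receptors and ephrins matched, 1 rose and 2 fell in G9a cKO and 1 fell in the cDKO. The median log2 change was −0.22 in G9a cKO and 0.15 in the cDKO, against −0.31 and 0.2 over all loci tested. The value of an empty locus follows library depth. Among loci with more than 3 reads, the list medians were −0.15 and 0.14, against 0.03 and 0.14 over all such loci. Epha4, another Eph receptor, rose from 137 to 170 reads to 270 to 295 in G9a cKO (log2 change 0.53, SE 0.14, adjusted p = 0.012). The ligand genes Efna2 (−1.83, adjusted p = 0.0179) and Efna1 (−1.41, 0.0477) fell in G9a cKO, with 2 to 6 reads against 10 to 11 and 3 to 9 against 10 to 13. Efnb1, a ligand of the EPHB class, fell in the cDKO from 15 to 30 reads to 6 to 7 (−1.53, adjusted p = 0.0121). In G9a cKO it held 10 to 18 reads against 23 to 35 and was not called (−1.27, limma adjusted p = 0.0606). Each of these calls was lost on leaving out some single libraries. Epha4 lost its call without GKAO control replicate 2 or G9a cKO replicate 2 or 3 (adjusted p 0.0813 to 0.128), Efna2 without GKAO control replicate 1 or 3 or G9a cKO replicate 1 (0.0529 to 0.303), and Efna1 without GKAO control replicate 1 or 3 or G9a cKO replicate 2 or 3 (0.0544 to 0.379). With the GKAO title number as a block, the adjusted p was 0.0818 for Epha4 and 0.125 for Efna1. Efnb1 lost its call without GKAQ control replicate 2 or either cDKO library (0.0551 to 0.091).

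Of 15 RGS genes and partners of RGS7 matched, 1 fell in G9a cKO, and 1 rose and 1 fell in the cDKO. Their medians were −0.27 and 0.2, or −0.28 and 0.06 among those with more than 3 reads. Rgs19 fell in G9a cKO (log2 change −1.89, adjusted p = 0.00178), with 0 to 15 reads against 11 to 19, so the groups overlap. Rgs12 fell in the cDKO from 89 to 152 reads to 60 to 62 (−0.79, adjusted p = 0.00752). Rgs2 had a log2 change of 0.28 in the cDKO (adjusted p = 0.0132, or 0.204 when libraries were centred on the median of loci of at least 10 RPM). Leaving out GKAO control replicate 1 or G9a cKO replicate 2 ended the call of Rgs19 (adjusted p = 0.0599 and 0.18). Leaving out cDKO replicate 1 ended those of Rgs12 (0.0872) and Rgs2 (0.694), as did GKAQ control replicate 3 for Rgs12 (0.0516) and GKAQ control replicate 1 for Rgs2 (0.0557). Each of these changes was smaller than the 5.04 of Rgs7 in the cDKO, but Rgs7 was picked on such values, so nothing is read from this.

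Of 22 genes of the ETV factors and FGF-ERK signalling matched, 1 fell in G9a cKO, and 2 rose and 2 fell in the cDKO. Their medians were 0.16 and 0.28, or 0.15 and 0.27 among those with more than 3 reads. Dusp6 and Dusp4, which encode phosphatases that switch off ERK-family kinases and are induced by the pathway, rose in the cDKO. Dusp6 held 0 to 1 reads in GKAQ controls and 5 and 11 in the cDKO, a ratio of 14.0 (3.29 to 125, adjusted p = 0.000949). Dusp4 held 0 to 2 and then 3 and 11 reads, a ratio of 8.16 (2.28 to 44.3, adjusted p = 0.0347), a call lost without GKAQ control replicate 2 or 3 or cDKO replicate 1 (0.134 to 0.591). Spry4, another feedback inhibitor of the pathway, fell in both mutants, by 0.36 in G9a cKO (adjusted p = 0.00474) and by 0.6 in the cDKO (adjusted p = 2.81e-07) on the log2 scale. The Spry4 call in G9a cKO was lost without GKAO control replicate 2 or G9a cKO replicate 2 or 3 (0.0566 to 0.289) and with the title number as a block (0.124). The Spry4 call in the cDKO was lost with log2(RPM + 1) (0.137) and with precision weights (0.0548). Kit, the oocyte receptor tyrosine kinase, fell by 0.38 in the cDKO (adjusted p = 0.000186). Members of this list thus moved in both directions where Etv5 was higher.

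Of 15 genes around LIMCH1 and actomyosin matched, none was called in G9a cKO, and 1 rose and 2 fell in the cDKO. Their medians were 0.04 and −0.03, or 0.04 and −0.12 among those with more than 3 reads. The kinase genes Cdc42bpa (log2 change −0.6, adjusted p = 4e-07) and Rock1 (−0.42, 0.000865) fell. Rock2 had a change of 0.77 (adjusted p = 0.0421, or 0.0995 when centred), and its call was lost without GKAQ control replicate 1 or 3 or either cDKO library (0.116 to 0.295). The Rock1 call was lost without cDKO replicate 1 (0.102), and that of Cdc42bpa with log2(RPM + 1) (0.0993). With log2(RPM + 1) and with precision weights the cDKO calls of Rock1, Rock2, Rgs2 and Dusp4 were lost as well, as were all 5 list calls in G9a cKO (adjusted p 0.0749 to 0.548). With all 6 controls as 1 group those of Rock2 (0.239) and Rgs2 (0.951) were lost. Of 5 XK family genes matched, none was called in either mutant, and 2 had more than 3 reads in some library. Beside these lists, 2 of 12 granulosa markers, Inha and Fshr, rose in the cDKO with 12 to 17 and 9 to 16 reads. The summed granulosa level, 64.02 to 71.17 RPM, lay within or below the 65.99 to 77.93 RPM of the GKAQ controls. Only 1 of the 12 averaged at least 10 RPM, so the sum can hide a rise of the others. The median log2 change of granulosa markers with more than 3 reads was 0.06 in G9a cKO and 0.55 in the cDKO. Over all such loci it was 0.03 and 0.14. The Inha call was lost without GKAQ control replicate 3 (0.0599) or cDKO replicate 2 (0.131), and the Fshr call without GKAQ control replicate 1 or either cDKO library (0.065 to 0.385). Of the 11 oocyte markers, Nlrp5 (log2 change 0.21, adjusted p = 2e-07) and Zp2 (0.15, 0.0332) were higher and H1foo (−0.19, 0.0123) lower in G9a cKO. In the cDKO, Zp3 (0.36, 2.77e-08), Zp2 (0.32, 2.85e-09) and Nlrp5 (0.13, 0.0183) were higher and Gdf9 (−0.26, 1.09e-09) lower. These 3 and 4 of 11 stand beside the 2.96% and 10.3% of all annotated loci called. The shares are not matched for level, since all 11 markers averaged at least 10 RPM, where smaller changes can be called. The Zp2 call in G9a cKO was lost without any 1 GKAO library (limma adjusted p 0.0571 to 0.161). The H1foo call was lost without GKAO control replicate 3 (0.159) or G9a cKO replicate 1 (0.229). That of Nlrp5 in G9a cKO was lost with log2(RPM + 1) (0.317). In the cDKO the Nlrp5 call was lost without GKAQ control replicate 2 (0.699) and when centred (0.814). With all 6 controls as 1 group the cDKO calls of Zp2 (0.874), Zp3 (0.969) and Nlrp5 (0.721) were lost. The part of either marker list in the results was not tested.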

How the data were processed

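RNA was analysed in 11 libraries and H3K9me2 in 6, of 40 samples; the input, IgG and bisulphite samples were not analysed here. The authors deposited both tables as log2 RPM per library. The unit was read from the values: 100% of them were whole reads within 0.1, with an empty feature set to 0.9 read. Per the submitters' processing notes, Trim Galore, Bowtie2, HISAT2 2.1.0, Bismark 0.19.0 and GRCm38 were used, with no role given. Not used were 4 columns of the H3K9me2 table, and 1 RNA row without a name was left out. Which reads were counted, and whether by strand, is not given in the sources used here.

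A limma 3.58.1 model in R 4.3.3 with 1 mean per group, a variance trend on the level and robust moderation was fitted over all features, with two-sided p-values adjusted by Benjamini-Hochberg and a threshold of 0.05. Windows needed a read in at least 1 library; loci used log2 of the mean window RPM plus 0.5. Design choices had allowed for counts, but log2 values called for limma. Ratios are pooled reads over library totals with exact conditional 95% intervals. Members and gene lists were chosen with earlier results of these data known. Named by rule were the members, up to 3 called neighbours per member, overlapping loci above 3 reads, up to 3 called genes per list and comparison, the 2 loci most like each member, Ehmt1 and Ehmt2. Of these, 1 locus is not reported here. The scripts were tested on simulated data. There the window test called unchanged windows in G9a cKO and the locus test found no changed locus, so 2 other variance trends were added after the results were seen, as were the comparisons of the mutants with each other. Figures used Python 3.11.15 and matplotlib 3.10.9. Alternatives left out each library, changed the scaling, the filter, the value of empty loci, the weights, the controls, the title number as a replicate block, the distance or the depth.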

Additional observations from a re-analysis of the deposited data

Results flagged for a closer look

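Igf2bp2, 217.6 kb past the 3′ end of Etv5, was the neighbour whose change differed between the mutants by a test of the difference itself. Its effect in the cDKO minus its effect in G9a cKO was −0.31 on the log2 scale (limma, adjusted p = 0.0472 over all loci), and 1.08% of all loci had such a difference. It held 755 and 635 RPM in the cDKO against 870, 862 and 841 in GKAQ controls, and 1210, 1080 and 997 RPM in G9a cKO against 1150, 1140 and 994 in GKAO controls. The G9a cKO groups overlapped. The difference was computed after the data had been seen.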

How the results depend on the processing

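Of the alternatives to the 28 results recomputed, 246 stayed within set limits, 36 moved, 6 reversed and 4 gained a call. The limits were the same direction and call for H3K9me2 over loci, 1 SD of the libraries for an RNA change, and 1.5 times for a count. Of 35 counts within them, 11 changed. Every RNA change of the 5 genes kept its sign in these alternatives. With log2(RPM + 1) the change in G9a cKO was 2.87 for Ephb1 and 2.85 for Etv5, and in the cDKO 2.61 for Etv5, 3.91 for Rgs7 and 4.64 for Limch1. With all 6 controls as 1 group it was 2.83 for Etv5 and 1.03 for Rgs7 in G9a cKO, and 3.95 for Etv5 and 1.54 for Xkr4 in the cDKO. Leaving out 1 library gave 3.22 to 4.33 (Ephb1), 3.38 to 4.31 (Etv5), 0.03 to 0.51 (Rgs7), 2.99 to 3.98 (Limch1) and 2.1 to 2.81 (Xkr4) in G9a cKO, and 4.2 to 5.2, 2.82 to 3.19, 4.64 to 5.68, 5.63 to 6.0 and 0.75 to 1.21 in the cDKO.

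Called neighbours in G9a cKO numbered 1, and 0 to 1 without 1 library, 0 with log2(RPM + 1) and 0 with precision weights. In the cDKO they numbered 8, and 5 to 8 without 1 library, 3 with log2(RPM + 1), 5 with precision weights and 4 within 250 kb. Called list genes in G9a cKO numbered 5, and 1 to 5 without 1 library, 0 with log2(RPM + 1), 1 with precision weights and 9 with all controls. In the cDKO they numbered 10, and 4 to 11, 4 with log2(RPM + 1) and 6 with precision weights. The causes were not tested.

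Member windows called in G9a cKO numbered 2, and 0 to 10 without 1 library, 0 over windows of at least 1 RPM and 0 with log2(RPM + 0.5); in the cDKO they were 0 throughout. For H3K9me2 over loci, the change of Etv5 in G9a cKO ran from −0.18 to 0.05 without 1 library, that of the 3′ row of Limch1 from −0.84 to 0.09, and in the cDKO that row's ran from −0.11 to 0.18, and was −0.05 when centred. With the prior variance on summed reads the changes of −0.36 (Ephb1), −0.33 (Rgs7) and −0.62 (Limch1 upstream row) passed the threshold, and with the number of windows −0.33 (Rgs7). Under the other alternatives their adjusted p ranged from 0.168 to 0.774, 0.269 to 0.767 and 0.112 to 0.653.

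The labels do not say what the title numbers mark. Each of the 2 GKAO numbers is shared by 3 control or G9a cKO libraries and was fitted as a replicate block. With it the change in G9a cKO was 4.08 for Ephb1, 3.96 for Etv5, 0.23 for Rgs7, 3.61 for Limch1 and 2.36 for Xkr4, with 1 neighbour and 4 list genes called, the latter count added after seeing the data. Of the named list genes, Epha4, Efna1 and Spry4 lost their calls. No block could be fitted for the cDKO, where only control replicate 2 and cDKO replicate 2 share a number. Few reads limit the controls of every member.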
